A study of Oryza sativa with 4 samples.

Results

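Regions of histone acetylation that were found in both peak lists but kept at most 0.67 of their width under drought were examined in leaves of Hanyou73, a rice hybrid made to save water and resist drought. Chromatin immunoprecipitation followed by sequencing (ChIP-seq) for histone H4 acetylated at lysine 5 (H4K5ac) gave 2 libraries from drought-stressed and 2 from well-watered plants, all of this cultivar at the grain filling stage and with no genetic change named in the labels. The data were 2 peak lists, 1 per condition, to which both replicates of that condition pointed. The members were selected on the measured widths themselves: on chromosomes 1 to 12, a drought-stressed and a well-watered peak that overlapped each other by at least 1 bp and no other peak were taken as a pair, and pairs with a drought-stressed width of at most 0.67 of the well-watered width were kept. Of 23644 such pairs, 2159 met this limit (9.13%) and are called narrowed pairs here.

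Acetylation of lysine 5 neutralises a positive charge on the tail of histone H4, and is set by histone acetyltransferases and removed by histone deacetylases. The mark is found mainly at promoters and the first part of transcribed genes, where proteins with bromodomains can bind it. The width of a called peak is the stretch over which the ChIP signal passed the caller's threshold, so it depends on signal height and read depth as well as on the extent of the mark.

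The drought-stressed list held 26063 peaks on the numbered chromosomes, with a median width of 571 bp, and the well-watered list 28794 peaks, with a median of 611 bp. No read counts were part of these lists, so depth was unknown, and each width is 1 value per condition with no replicate spread. No test between the conditions was therefore possible, and shares below carry Wilson 95% intervals that cover counting error only and take neighbouring pairs as independent. The genome build is not given in the sources used here. The rice gene table at hand did not share the coordinates of the lists, since the midpoints of 15.99% of the well-watered peaks were at most 500 bp from a gene end in it, beside 13.4% to 16.3% after 20 shifts along the chromosomes, so no gene was assigned to any region.

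Losses of this size were far more frequent than gains of this size. Against 9.13% of pairs (8.77% to 9.51%) that met the limit, 418 pairs (1.77%, 1.61% to 1.94%) were wider under drought by the same factor, with the well-watered width at most 0.67 of the drought-stressed width. Among all pairs, 75.1% were narrower under drought to some degree and the median ratio of widths, drought-stressed over well-watered, was 0.918. The narrowed pairs made up 12.2% of the 17767 narrower pairs and 32.3% of the length those pairs lost. Together they spanned 707 kb in the drought-stressed list and 1355 kb in the well-watered list, a difference of 647 kb. These counts follow from the limit and describe the lists.

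The narrowed pairs ran from drought-stressed widths of 145 to 1099 bp (median 279 bp) and well-watered widths of 220 to 1917 bp (median 573 bp). Their ratio ran from 0.104 up to the limit of 0.67, with a median of 0.558, and 725 of them (33.6%) kept at most 0.5 of their width. The loss had a median of 265 bp and an interquartile range of 189 to 369 bp, and 216 pairs (10.0%) lost 500 bp or more. In 534 pairs (24.7%) the remaining drought-stressed peak was under 200 bp wide, close to the shortest peak of that list at 145 bp. Among all other pairs the drought-stressed peak was under 200 bp in 891 of 21485 (4.15%). The rule itself enlarges this difference, since it asks for a small drought-stressed width. The limit had no gap around it: the 3 pairs just inside had ratios of 0.67, 0.6697 and 0.6697, and the 3 just outside had 0.6701, 0.6701 and 0.6703.

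**Figure D1:**
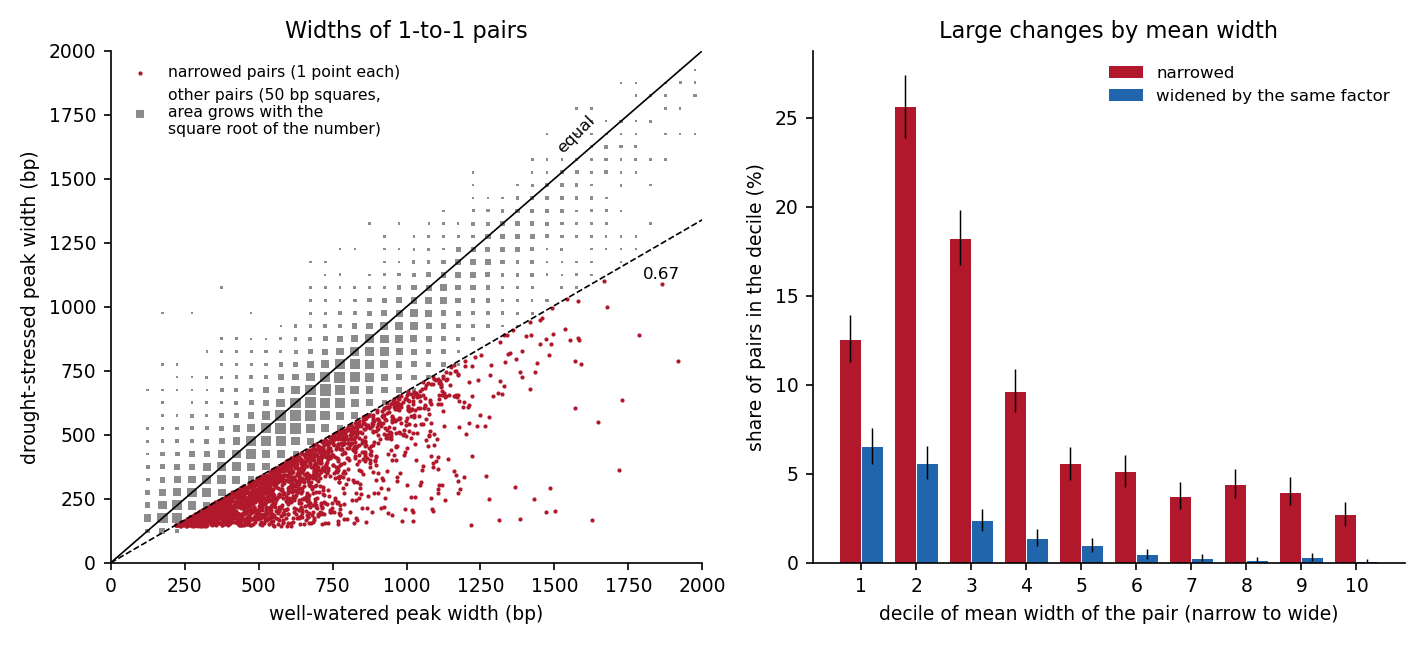
Left, drought-stressed width against well-watered width in bp for narrowed pairs (red points) and other pairs (grey squares of 50 bp, larger where they hold more pairs), with lines at equal width and at the 0.67 limit; both axes stop at 2000 bp, which leaves out some wider pairs among the others. Right, share of pairs in each decile of mean width that were narrowed (red) or widened by the same factor (blue), with Wilson 95% intervals; narrowed pairs peaked at 25.6% in the second decile.

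The median well-watered width was 573 bp in narrowed pairs, against 670 bp in all other pairs. The mean width (the average of the 2 widths of a pair) had medians of 431 bp in narrowed and 643 bp in all other pairs, a difference that the rule itself enlarges, since it asks for a small drought-stressed width. By deciles of mean width over all pairs, 25.6% of the second decile (274.5 to 391 bp) and 18.2% of the third (391.5 to 493 bp) were narrowed. In the highest decile (944 bp and above) 63 of 2365 pairs were narrowed, or 2.66%. The lowest decile (142 to 274 bp) had 12.5%, but there a well-watered peak had little room to narrow before it reached the shortest listed width. Gains of the same factor made up 6.50% of the lowest decile, 0.928% of the fifth and 0.0423%, 1 pair, of the highest. Losses outnumbered gains in each of the 10 deciles, by 297 pairs to 154 among the narrowest and by 63 to 1 among the widest.

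For each narrowed pair the loss was divided between its left end and its right end, as the lists run along the chromosome, since no strand is known. A loss was called one-sided where 1 end took at least 80% of it, two-sided where the larger end took under 66.7%, and intermediate otherwise. One-sided loss was the most common form, with 1285 of 2159 pairs (59.5%, 57.4% to 61.6%). Two-sided loss was found in 462 pairs (21.4%, 19.7% to 23.2%) and 412 pairs were intermediate (19.1%). Left and right were equally frequent among one-sided losses, with 640 at the left end and 645 at the right.

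By the definition, 1 end of a one-sided pair took only a small part of the net loss or moved outward. The end that lost more moved inward by a median of 265 bp (interquartile range 193 to 355 bp) and the other by 12 bp (-10 to 34 bp, negative values being outward). The median widths of one-sided pairs were 286 bp under drought and 587 bp in well-watered leaves. In two-sided pairs the ends moved inward by medians of 150.5 and 105.5 bp, and the median widths were 266 bp under drought and 538 bp in well-watered leaves. Total loss had a median of 271 bp in one-sided and 251.5 bp in two-sided pairs, so the forms of loss were much alike in width and in bp lost. The other end lay within 20 bp of its well-watered position in 289 pairs with a left and 278 with a right loss.

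The narrowed pairs were set beside other narrower pairs weighted to the same distribution of mean width over 20 bins. By the same definition 59.5% of narrowed pairs and 65.5% of these others were one-sided. The others had a median loss of 58 bp, and their shares include many small net losses made up of a larger loss at 1 end and a gain at the other. Because the movements of the ends add up to the loss on which the members were selected, the pairs were also matched on the loss in bp, a comparison chosen after the data were seen and open to the 2014 narrowed pairs whose loss lay within the range of the others. Of other narrower pairs of like loss 63.7% were one-sided, though the peaks concerned were broader (median in well-watered leaves 1021 bp). An end moved outward in 19.9% of narrowed pairs (18.2% to 21.6%), in 39.0% of the others of like mean width and in 15.9% of those of like loss. Both ends moved inward in 78.2% of narrowed pairs (76.4% to 79.9%), in 55.2% of the others of like mean width and in 80.9% of those of like loss. One-sided losses in which the other end did not move outward made up 39.6% of narrowed pairs (37.6% to 41.7%), 26.5% of the others of like mean width and 47.8% of those of like loss. The order of narrowed and other pairs in these 3 measures of end movement thus depended on the matching, whereas the one-sided share was lower in narrowed pairs under both. The loss was at 1 end in 59.5% of the narrowed pairs (57.4% to 61.6%). A gain was at 1 end in 73.4% (69.0% to 77.5%) of the 418 pairs widened by the same factor. These were not matched to the narrowed pairs. Their median widths were 408 bp under drought and 210.5 bp in well-watered leaves, against 279 and 573 bp in narrowed pairs.

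**Figure D2:**
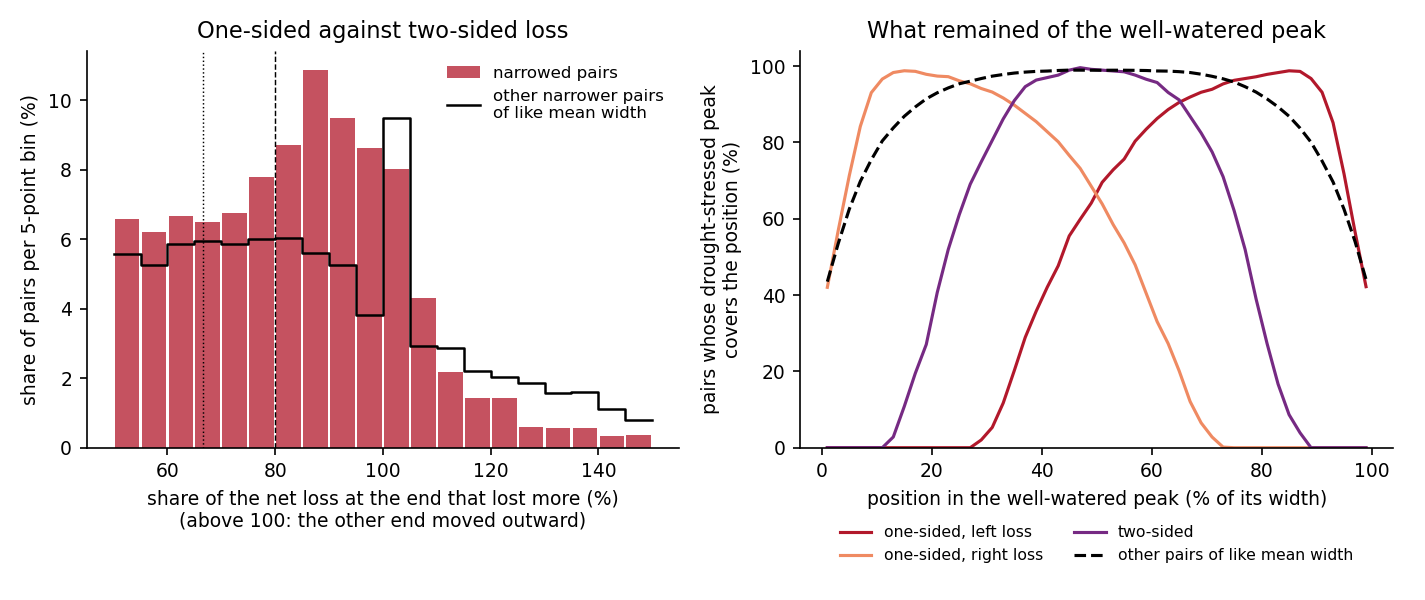
Left, share of the net loss taken by the end that lost more, in percent, for narrowed pairs (red bars) and other narrower pairs of like mean width (black line), with the limits of two-sided (dotted) and one-sided loss (dashed); 2.04% of narrowed and 18.3% of the other pairs lie beyond the axis. Right, percent of pairs whose drought-stressed peak covers each position of the well-watered peak, by form of loss; one-sided losses keep one end, and two-sided losses keep the middle.

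The remaining drought-stressed peak covered the midpoint of the well-watered peak in 1700 of 2159 narrowed pairs (78.7%). It did so in 861 of 1285 one-sided pairs (67.0%, 64.4% to 69.5%) and in 458 of 462 two-sided pairs (99.1%). In the other one-sided pairs the midpoint lay in the lost part. These shares follow largely from the definitions. A drought-stressed peak that lies inside the well-watered peak and keeps more than 0.5 of its width must cover the midpoint. A two-sided loss can miss it only where very little width remains. With the well-watered peak divided into 3 equal parts, the centre of the drought-stressed peak lay in the left part in 504 narrowed pairs, in the middle part in 1167 (54.1%) and in the right part in 488. It lay in the middle part in 92.0% of other narrower pairs of like mean width. Those pairs lost less (median 58 bp), and a small loss can move the centre only a little. One-sided loss was least frequent, at 51.5% (43.1% to 59.9%), in the 132 narrowed pairs with a well-watered width of up to 300 bp, and most frequent, at 65.6% (59.2% to 71.5%), in the 224 above 1000 bp. The 5 classes of width between them had 56.0% to 61.4%. It did not follow score in order: with the members in 4 groups of like number by well-watered score, low to high, the one-sided shares were 63.0%, 55.2%, 53.1% and 66.9%.

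The broadest one-sided losses removed more than 1 kb from 1 end. On chromosome 2, the well-watered peak from 4542849 to 4544765 (1917 bp, the widest of the members) met a drought-stressed peak of 787 bp that began 6 bp further left and ended 1136 bp short on the right. On chromosome 1, the well-watered peak from 27875727 to 27877372 (1646 bp) met a drought-stressed peak of 550 bp, with the left end moved outward by 7 bp and the right end 1103 bp inward. Of the right-sided losses with the other end within 20 bp of its place, these were the largest. The next was on chromosome 5 from 26891021 to 26892213, where 335 bp under drought met 1193 bp in well-watered leaves.

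On the left side, the largest loss with a fixed right end was on chromosome 3 from 30406799 to 30407973. There the drought-stressed peak was 319 bp wide and the well-watered peak 1175 bp, with 857 bp lost on the left and the right ends 1 bp apart. It was followed by chromosome 3 from 1994936 to 1995965, with 257 bp under drought and 1030 bp in well-watered leaves. The first 4 left-sided regions in order were at percentiles 5.86 to 19.6 of the scores of the drought-stressed list and at 20.1 to 25.9 of the well-watered list. The fifth, on chromosome 8 from 25890402 to 25891883, stood higher, with a drought-stressed peak of 813 bp with a score of 794 (percentile 79.5) and a well-watered peak of 1482 bp with a score of 1163 (percentile 83.5). The scores are the authors' values per peak on an unstated scale, are ranked within each list only, and show no change between the lists.

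The most balanced two-sided loss among the 52 two-sided pairs that lost 500 bp or more was on chromosome 4 from 34253269 to 34254506. Its drought-stressed peak measured 536 bp and its well-watered peak 1238 bp, with 348 bp lost on the left and 354 bp on the right. On chromosome 5 from 6773569 to 6774657, 375 bp under drought met 1089 bp in well-watered leaves, with losses of 362 and 352 bp. The narrowest remnant of the 5 most balanced was on chromosome 3 from 34267847 to 34268617, where 195 bp under drought stood in the middle of 771 bp in well-watered leaves.

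**Figure D3:**
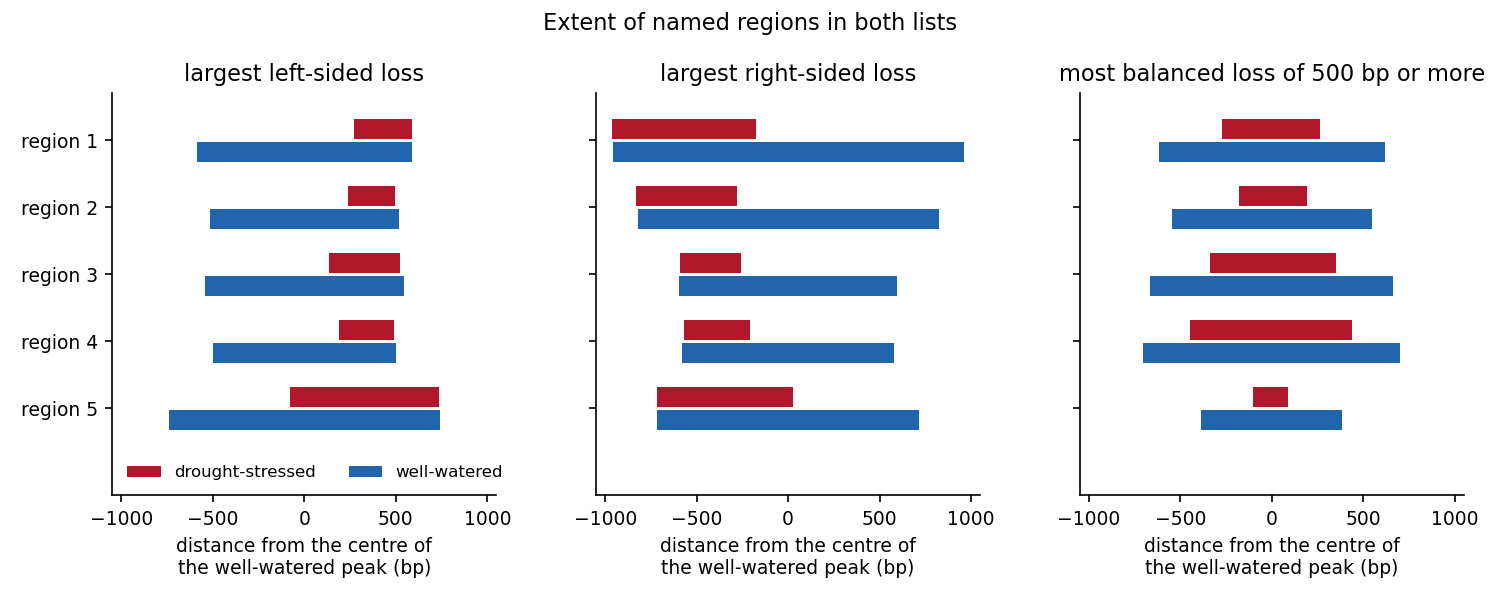
Extent of the drought-stressed (red, upper) and well-watered peak (blue, lower) in bp from the centre of the well-watered peak. Shown are the 5 largest left-sided and the 5 largest right-sided losses with the other end within 20 bp of its place, and the 5 most balanced losses of 500 bp or more. By this choice the right ends lie within 20 bp of each other in the first column and the left ends in the second, and the remaining peak is central in the third.

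The smallest ratios were all remnants of well-watered peaks of 1217 bp and more. The smallest of all, 0.104, was on chromosome 10 from 15874495 to 15876121, where a drought-stressed peak of 169 bp lay in a well-watered peak of 1627 bp, with 667 bp lost on the left and 791 bp on the right. On chromosome 8 from 18220062 to 18221278, 147 bp under drought met 1217 bp in well-watered leaves, and 1005 bp of the loss was on the right. On chromosome 4 from 8474781 to 8476165, 171 bp under drought met 1385 bp in well-watered leaves, with 1062 bp lost on the left. The last 2 of the 5 smallest ratios, 0.127 and 0.135, were on chromosome 11 from 27116613 to 27117924 and on chromosome 2 from 30839049 to 30840549. The loss of the region on chromosome 10, 1458 bp, was also the largest of all members in bp. The next largest, 1355 bp, was on chromosome 2 from 6311935 to 6313652, where 363 bp under drought met 1718 bp in well-watered leaves and 1118 bp were lost on the left. The well-watered peak nearest to it, 344 bp to its left, was absent from the drought-stressed list. The 5 regions of smallest ratio had scores of 49 to 113 in the drought-stressed list, at percentiles 7.06 to 24.2, and of 124 to 208 in the well-watered list, at percentiles 27.2 to 37.0.

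Narrowed pairs were low in score in general. In the drought-stressed list their median score was 84, at percentile 18.3 of all peaks, against percentile 40.3 for other pairs of like mean width. In the well-watered list their median was 147, at percentile 30.3, against 45.4 for the other pairs. A narrower peak under drought tends to score lower in that list, so its percentile is tied to the rule. The well-watered score belongs to the list in which these peaks were wide, but the well-watered width is part of the rule too. At like mean width the median well-watered width was 573 bp in narrowed and 446 bp in other pairs. Other pairs of like well-watered width stood at percentile 56.1 of the well-watered scores. Within the band of 400 to under 500 bp of mean width, 165 of 470 pairs (35.1%) were narrowed in the lowest 20% of well-watered scores and 16 of 470 (3.40%) in the highest 20%. In the band of 700 to under 1000 bp, the shares were 153 of 1397 (10.95%) and 18 of 1396 (1.29%). Among pairs of 200 to under 300 bp the order was less simple, with 22.6% in the lowest 20%, 29.4% in the middle 20% and 7.28% in the highest 20%.

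Large gains of width were likewise found mostly at low scores. By deciles of the geometric mean of both scores, 719 of 2365 pairs (30.4%) were narrowed and 244 (10.3%) widened in the lowest, and 32 (1.35%) were narrowed and none of 2365 widened in the highest, where a count of 0 allows a share of up to 0.162%. Losses outnumbered gains in each decile. With both peaks required to lie above the lowest 25% of the scores of their list, 728 of 18662 pairs (3.90%) were narrowed and 90 widened.

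**Figure D4:**
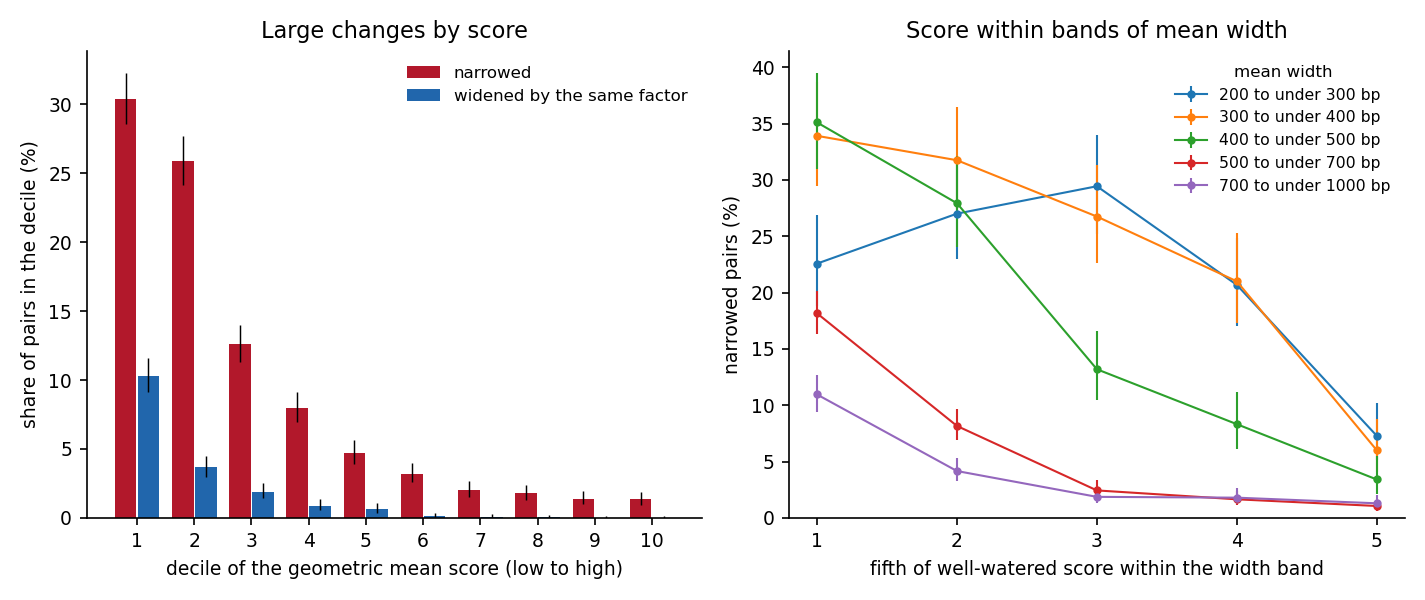
Left, share of pairs that were narrowed (red) or widened by the same factor (blue) in each decile of the geometric mean of both scores, with Wilson 95% intervals; narrowed pairs made up 30.4% of the lowest decile and 1.35% of the highest. Right, share of narrowed pairs by 5 equal groups of the well-watered score within 5 bands of mean width, with the same kind of interval; in every band the group of highest scores has the smallest share.

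Still, 379 narrowed pairs (17.6%) had a well-watered score above the median of that list. These were broader than the other members, with median widths of 490 bp under drought and 811 bp in well-watered leaves, against 252 and 534.5 bp for the 1780 others. One-sided loss was found in 68.9% of them (64.0% to 73.3%), against 57.5% (55.2% to 59.8%) of the others. Only 2.64% of them were reduced to under 200 bp, against 29.4% of the others. Of all pairs with a well-watered score above the list median, 379 of 14121 (2.68%, 2.43% to 2.96%) were narrowed, against 1780 of 9523 (18.7%, 17.9% to 19.5%) at or below it.

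Of the 5 highest-scored members 4 had a one-sided loss and 1 an intermediate one. The first was on chromosome 11 from 13116555 to 13117079, with 303 bp and a score of 10724 under drought and 525 bp and a score of 14518 in well-watered leaves. It lost 9 bp on the left and 213 bp on the right. The next 3 lay on chromosome 4 between 8 and 9 Mb. They were from 8052164 to 8053049, with 558 bp under drought and 886 bp in well-watered leaves, from 8849611 to 8849954, with 229 bp under drought and 344 bp in well-watered leaves, and from 8870638 to 8871078, with 283 bp under drought and 441 bp in well-watered leaves. The fifth, on chromosome 6 from 10621929 to 10622351, had 267 bp under drought and 423 bp in well-watered leaves, and lost 154 bp on the left and 2 bp on the right. In both lists all 5 stood above percentile 99 of scores.

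The narrowed pairs were spread over all 12 chromosomes. The share ran from 100 of 1398 pairs on chromosome 12 (7.15%, 5.92% to 8.62%) to 183 of 1823 on chromosome 7 (10.04%, 8.74% to 11.5%). The share each chromosome would have from the mean widths of its pairs alone ran from 8.78% to 9.53%. On chromosome 12 it was 9.23%, above the counting interval of the observed share, and 8.67% when both width and well-watered score were used, just above that interval. On chromosome 3, with 291 of 2923 pairs (9.96%, 8.922% to 11.1%), the share from width was 8.921%, just below the interval. It was 9.17%, inside the interval, with score as well. All 12 chromosomes were compared, and chromosomes 12 and 3 were named for their values. On the other chromosomes the share from width lay within the interval of the observed one. Distance from the chromosome end showed no trend, with 9.10% narrowed in the outermost 10% of the chromosome length and 9.06% around the middle, at 40% to 50% of the length from the nearer end.

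Surroundings rich in H4K5ac peaks had somewhat more narrowed pairs. In the 20% of pairs with the fewest well-watered peaks within 500 kb (13 to 58 peaks) 7.59% were narrowed (6.87% to 8.38%), against 9.12% given by their mean widths. In the 20% with the most (113 to 148 peaks) 10.3% were narrowed (9.44% to 11.2%), against 9.35% given by mean width. With well-watered score taken into account as well, the shares given were 8.54% and 9.40%. Each of these lay just outside the counting interval of the observed share, above it in the sparsest and below it in the densest surroundings.

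Along the chromosomes the share varied about as much as counting error allows. In 1 Mb windows with at least 20 pairs, of which there were 372, the median share was 8.70% and the interquartile range 6.12% to 11.5%. The SD over windows was 3.99 percentage points, close to the 3.93 points that counting error alone gives for their numbers of pairs. The highest share was on chromosome 7 from 20 to 21 Mb, with 15 of 56 pairs (26.8%), where mean width gave 6.997 pairs. This window was picked for its share after the values were seen, out of 372. It was followed by chromosome 5 from 15 to 16 Mb, with 9 of 40, and chromosome 4 from 8 to 9 Mb, with 8 of 40, where mean width gave 3.94 and 4.12. In 9 windows with 330 pairs in all, no pair was narrowed, where mean width gave 26.4 and width with score 24.2. These 9 windows, and those on chromosomes 5 and 4, were likewise picked out of the 372 for their shares. The numbers given by width beside picked windows therefore measure no excess or deficit.

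The 15 narrowed pairs of the chromosome 7 window had drought-stressed widths of 149 to 705 bp (median 211 bp) and well-watered widths of 238 to 1727 bp (median 493 bp). Of these, 7 were one-sided. The broadest, from 20133613 to 20135339, measured 637 bp under drought and 1727 bp in well-watered leaves, with 1115 bp lost on the left. From 20874378 to 20875587, 705 bp under drought met 1210 bp in well-watered leaves, with 510 bp lost on the right. The last of the window, from 20973909 to 20974363 and from 20974522 to 20974759, were close neighbours, with 205 and 149 bp under drought and 455 and 238 bp in well-watered leaves. The other 41 pairs of this window had a median ratio of 0.905, beside 0.932 for all other pairs. Of its 72 well-watered peaks 8 (11.1%) were absent from the drought-stressed list, a lower share than the 15.1% of the whole well-watered list.

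In the chromosome 5 window 8 of the 9 narrowed pairs were one-sided. Its highest-scored member, from 15154319 to 15155379, had 616 bp under drought and 1061 bp in well-watered leaves, with 29 bp lost on the left and 416 bp on the right. The chromosome 4 window held 3 of the 5 highest-scored members named above as well as the region reduced to 171 bp of 1385 bp.

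Narrowed pairs showed little grouping along the chromosomes. The pair that followed a narrowed pair was itself narrowed in 206 of 2159 cases (9.54%, 8.37% to 10.9%), against 9.11% after other pairs of like mean width and 9.22% given by the widths of the following pairs. At the other distances up to 10 pairs, the share ran from 8.64% to 11.03%. Only at distances of 2 and 6 pairs, with 10.7% (9.42% to 12.03%) and 11.03% (9.78% to 12.4%), did the interval lie above the 9.36% and 9.56% given by width. In the order of pairs, which skips the unpaired peaks between them, 1780 members (82.4%) had no narrowed pair next to them. Of the runs, 145 held 2 members, 24 held 3, 3 held 4 and 1 held 5. With 9.13% of all pairs narrowed, most members would stand alone without any grouping, so these counts are no measure of it.

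**Figure D5:**
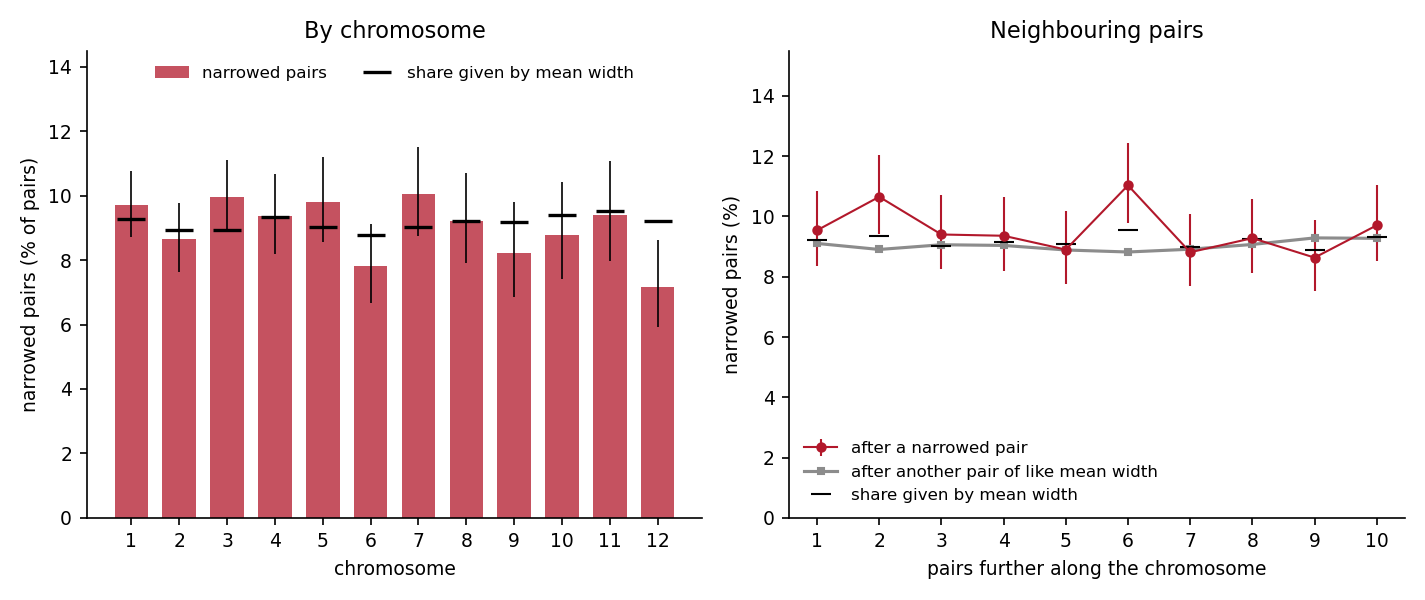
Left, share of pairs narrowed on each chromosome (bars, Wilson 95% intervals) with the share given by the mean widths of its pairs (black marks); chromosome 12 has the lowest share at 7.15%. Right, share of narrowed pairs at 1 to 10 pairs further along the chromosome after a narrowed pair (red, Wilson 95% intervals) and after another pair of like mean width (grey), with the share given by mean width (black marks); the shares stay between 8.64% and 11.03%.

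The longest run was 5 narrowed pairs on chromosome 3 from 31305343 to 31339242, over 33.9 kb. Its broadest member, from 31315914 to 31317775, measured 1088 bp under drought and 1862 bp in well-watered leaves and lost 809 bp on the right. In order along the chromosome the ratios were 0.436, 0.584, 0.626, 0.493 and 0.469. Their losses did not share a direction, with 2 on the right, 2 on the left and 1 intermediate. A run of 4 on chromosome 1 from 28514512 to 28526977 spanned 12.5 kb, and 3 of its members lost the left end. Another run of 4, on chromosome 7 from 28638121 to 28671146, spanned 33.0 kb and held 2 one-sided and 2 two-sided losses.

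Peaks next to narrowed pairs had more often no counterpart under drought than those next to other pairs of like mean width. The nearest other well-watered peak was absent from the drought-stressed list in 429 of 2159 narrowed pairs (19.9%, 18.2% to 21.6%), against 14.6% for other pairs of like mean width. Where other pairs were matched on well-watered score as well, the value was 15.9%. The share was 14.8% (11.6% to 18.7%) in narrowed pairs with a well-watered score above the list median and 21.0% (19.1% to 22.9%) in the rest; other pairs were not split by score in this way. The difference was seen for near neighbours within 1 kb, at 152 of 511 (29.7%, 25.9% to 33.8%) against 21.4%, and for those farther away, at 16.8% (15.1% to 18.7%) against 12.7%. A drought-stressed peak with no well-watered counterpart lay within 1 kb of 55 narrowed pairs (2.55%, 1.962% to 3.30%), against 1.61% for the others. The following pair had a median ratio of 0.916 after narrowed pairs, against 0.921 after other pairs of like mean width.

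The distance to the nearest well-watered peak was similar, with a median of 3496 bp for narrowed pairs and 3290 bp for other pairs of like mean width. This order depends on the matching, since other pairs of like well-watered width had a median of 3839 bp. Measured to the nearest drought-stressed peak the median was 4453 bp for narrowed pairs and 3683 bp for the others, which includes the width the narrowed peaks had lost.

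One-sided loss pointed to the nearer neighbour about as often as away from it. The lost end faced the nearer well-watered neighbour in 642 of 1285 one-sided pairs (49.96%, 47.2% to 52.7%), against 46.6% of other one-sided narrower pairs of like mean width. Within 1 kb of a neighbour it did so in 155 of 306 (50.7%, 45.1% to 56.2%). The neighbour on the side of the loss was absent from the drought-stressed list in 222 pairs (17.3%, 15.3% to 19.4%) and the neighbour on the other side in 208 (16.2%, 14.3% to 18.3%). In other one-sided narrower pairs of like mean width the values were 14.3% on the side of the loss and 13.2% on the other. A well-watered neighbour lay within 1 kb on the side of the loss in 165 narrowed pairs (12.8%, 11.1% to 14.8%), against 10.6% of the others, and on the other side in 169 (13.2%, 11.4% to 15.1%), against 13.3%. It was itself a narrowed pair in 97 cases on the side of the loss and in 96 on the other. The median gap was 6106 bp on the side of the loss and 6254 bp on the other. The lost flank and the kept flank of narrowed pairs thus differed by less than the counting error in each of these measures that carries an interval.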

How the data were processed

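H4K5ac ChIP-seq was done on leaves of drought-stressed and well-watered Hanyou73 rice, 2 libraries each. Per the submitters' processing notes, BWA, SAMtools, MACS2 and deepTools were used, with no versions. The authors deposited 1 peak list per condition with start, end, name and a score per peak, whose scale is not stated. The sources used here do not give the control, threshold or build, nor whether replicates were pooled, and the labels do not say whether replicates were separate plants. The deposited lists give the start and end of each peak in bp. Starts were taken as 0-based, which the sources used here do not state, and positions are printed 1-based here.

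Pairs, widths and losses at each end were computed in Python 3.11.15 (numpy 2.4.6, pandas 2.3.3, figures with matplotlib 3.10.9) and checked on simulated data. Other pairs within the members' range of mean width were weighted to the members over 20 bins of mean width. The share given by width is the mean share of narrowed pairs in the bins of the pairs concerned. Named regions follow fixed rankings: 5 each by smallest ratio, largest loss, widest well-watered peak, highest well-watered score, left-sided, right-sided and most balanced loss, and the 3 longest runs. The left-sided and right-sided rankings took only one-sided pairs whose other end lay within 20 bp of its well-watered position. The most balanced losses were ranked among two-sided losses of 500 bp or more. The windows named were picked after their shares were seen. The members, definitions and rankings were chosen with earlier results of these data known. The unplaced sequences were left out of all comparisons.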

Additional observations from a re-analysis of the deposited data

Results flagged for a closer look

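On the unplaced sequences Un and Sy, which the comparisons leave out, 4 of 74 pairs (5.41%, 2.12% to 13.1%) were narrowed to at most 0.67 of the well-watered width. The share on the numbered chromosomes, 9.13%, lies inside this interval. Of these 4 pairs, 2 were one-sided. The number was noted only because it passed a fixed floor of 3 pairs, which does not make it an excess.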

How the results depend on the processing

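The share of narrowed pairs, 9.13%, was 5.97% with a limit of 0.60, 15.4% with 0.75 and 3.90% with both peaks above the lowest 25% of scores; in the last case 728 pairs were narrowed and 90 widened by the same factor. The other settings (overlap of at least 0.5 of the narrower peak, well-watered width of at least 400 bp, merging within 200 bp, and, added after the data were seen, equal numbers of peaks) gave 8.74% to 9.38%. The one-sided share, 59.5%, was 66.3% with both peaks above the lowest 25% of scores, and 39.9% or 74.1% where 1 end had to take 0.9 or 0.7 of the loss. The share of next pairs that were narrowed, 9.54%, was 6.16% with a limit of 0.60 (5.95% given by width), 16.5% with 0.75 (15.4%), 3.30% above the lowest 25% of scores (3.95%) and 8.25% from 400 bp (8.73%). The gap to the nearest well-watered peak, narrowed minus other pairs, was 206 bp and became -343 bp when other pairs were matched on well-watered width. Of other narrower pairs, 68.7% were one-sided when well-watered score was matched as well as mean width, against 65.5% by width alone. Other pairs stood at percentile 45.4 of well-watered scores, at 56.1 when matched on well-watered width and at 30.5 when matched on score too. Of 45 alternative values, 31 stayed within the counting error or within 1.5 times of the value reported, 13 moved further and 1 changed direction. The tally includes moves that the setting itself brings about, such as a share under another limit or a score percentile matched on score. No paired analysis was possible because replicates have no lists of their own, so that none could be left out either. Depth is unknown, so its part in the widths was not tested.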
